A study of Caenorhabditis elegans with 2 samples.

Results

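The MAB-9 peaks described here lay on the autosomes between protein-coding genes and away from their promoters. A peak was included when its summit lay outside every protein-coding gene body and was also more than 1000 bp before, or more than 250 bp after, the closest start of a protein-coding transcript. These intergenic peaks numbered 259 of the 1431 peaks of the conservative list, a list that combines both replicates. The other autosomal peaks of that list comprised 680 promoter peaks and 225 peaks inside genes. MAB-9 was immunoprecipitated with an anti-GFP antibody from whole RW12257 L1 larvae, a strain in which CRISPR had put a TY1::EGFP::3xFLAG tag on the endogenous gene. The larvae had been starved after bleaching, their age was given as 6 hours, and 2 biological replicates formed the only group. Untagged or otherwise treated worms were not analysed here, and peaks of all tissues were mixed in whole animals. The lists hold no read counts, so the depth behind each peak is unknown.

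The T-box protein MAB-9 of C. elegans regulates transcription and is needed for cell fates in the hindgut and male tail. T-box proteins recognise DNA through a short half-site, of which AGGTGTGA is the usual form. Sites far from gene starts can act as enhancers, and the space between worm genes also holds small RNA genes, pseudogenes and repeated sequences. Which gene a distant site serves cannot be read from its position, so the nearest gene given below only names the place.

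Several of the strongest intergenic peaks lay on sequences that occur more than once in the genome, and these are printed because their copies differ by few bases and in some cases not at all. All coordinates are of the ce11 build and all sequences are from the RefSeq assembly of that build, WBcel235. A first sequence of 164 bp lay under the peak 2567 bp upstream of K07D4.2, which had a signal of 348, and copies of it lay under the ari-1.4 peak with a signal of 224, inside xpd-1, and at a place with no peak. The signal is the deposited peak height of the authors' caller, whose scale the files do not name. Capitals mark bases that differ from the K07D4.2 copy.
K07D4.2, chrII:4048000-4048163, plus strand: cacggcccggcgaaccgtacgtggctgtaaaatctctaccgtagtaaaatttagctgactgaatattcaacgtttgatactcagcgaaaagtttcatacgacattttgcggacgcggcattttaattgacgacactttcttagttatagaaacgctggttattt
ari-1.4, chrIV:15530640-15530803, minus strand: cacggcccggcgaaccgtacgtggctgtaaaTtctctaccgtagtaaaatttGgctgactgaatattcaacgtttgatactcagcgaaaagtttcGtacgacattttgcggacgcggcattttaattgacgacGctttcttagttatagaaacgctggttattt
xpd-1, chrIII:269721-269884, plus strand: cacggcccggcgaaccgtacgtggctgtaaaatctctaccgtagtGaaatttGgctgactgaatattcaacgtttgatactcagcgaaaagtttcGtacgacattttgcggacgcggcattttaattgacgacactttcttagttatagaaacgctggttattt
copy without a peak, chrV:19770928-19771090, minus strand: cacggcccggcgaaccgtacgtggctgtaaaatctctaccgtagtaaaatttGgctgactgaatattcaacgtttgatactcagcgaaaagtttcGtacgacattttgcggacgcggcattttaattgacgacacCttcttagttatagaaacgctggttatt

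A second sequence, of 117 bp, lay at 2 of the 3 intergenic peaks around K08F11.1, with signals of 461 and 265, and is printed with the copy under the col-72 peak, which had a signal of 111. The 117 bases were identical at chrIV:4728023-4728139, chrIV:4720602-4720718, chrIV:4184848-4184964 and chrV:17519289-17519405. The first 3 of these lay at intergenic peaks of the conservative list, and the last lay at no peak in the conservative or the pooled ranked list. In the col-72 copy, capitals mark bases that differ from the K08F11.1 copy. The last line gives the 84 bases at the left edge of the strongest peak of the whole list, 2605 bp upstream of F58D12.3 with a signal of 721. This stretch ended 106 bp before that peak's summit and was identical to chrIV:4184979-4185062 at the K08D10.11 peak, which also holds the second sequence and had a signal of 258.
K08F11.1, chrIV:4728023-4728139, plus strand: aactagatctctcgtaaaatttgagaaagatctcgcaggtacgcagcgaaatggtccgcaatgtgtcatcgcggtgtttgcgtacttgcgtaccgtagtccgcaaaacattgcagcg
col-72, chrII:3523658-3523775, minus strand: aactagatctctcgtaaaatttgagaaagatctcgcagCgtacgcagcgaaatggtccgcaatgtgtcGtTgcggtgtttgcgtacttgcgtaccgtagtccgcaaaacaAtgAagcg
F58D12.3, chrV:14055046-14055129, plus strand: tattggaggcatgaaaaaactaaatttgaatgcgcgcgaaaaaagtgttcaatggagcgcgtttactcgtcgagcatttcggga

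A pair of strong peaks lay directly upstream of SL2 spliced leader genes, whose short RNAs are joined to the messages of downstream genes in operons. They are shown on the genes' own strand with the bases of the genes in capitals. The summit is the middle base of each window, 51 bp before the start of sls-2.1 and 11 bp before the start of sls-2.2.
sls-2.1, chrII:5844714-5844914, plus strand: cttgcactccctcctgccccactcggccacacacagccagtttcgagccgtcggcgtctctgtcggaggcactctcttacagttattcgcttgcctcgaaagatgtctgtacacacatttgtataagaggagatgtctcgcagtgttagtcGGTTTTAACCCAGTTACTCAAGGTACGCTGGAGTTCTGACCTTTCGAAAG
sls-2.2, chrII:5543487-5543687, plus strand: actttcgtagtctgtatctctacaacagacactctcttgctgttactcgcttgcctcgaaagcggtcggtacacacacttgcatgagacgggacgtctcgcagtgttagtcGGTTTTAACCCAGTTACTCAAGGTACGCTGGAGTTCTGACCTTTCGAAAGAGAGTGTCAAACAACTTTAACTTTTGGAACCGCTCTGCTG

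Other strong intergenic peaks carried GA repeats, and many carried the 7 bases CTGCGTC, which reads GACGCAG on the other strand. Stretches near the summits of the T04C4.3, hif-1 and nhr-88 peaks, 3 of the 15 strongest, are shown with every GAGAGA and CTGCGTC of either strand in capitals. The hif-1 peak is narrow (20778369 to 20778459), and the CTGCGTC of its stretch lies to the left of the deposited peak, although within 100 bp of the summit. The wht-7 peak had the highest signal of the 5 intergenic peaks with a COE pattern, the palindromic site of the Collier, Olf and EBF factors, here in capitals. The H14E04.3 peak was the only intergenic peak with AGGTGTGA, which lies on the minus strand and is capitalised as read on the plus strand.
T04C4.3, chrIV:2219530-2219650, plus strand: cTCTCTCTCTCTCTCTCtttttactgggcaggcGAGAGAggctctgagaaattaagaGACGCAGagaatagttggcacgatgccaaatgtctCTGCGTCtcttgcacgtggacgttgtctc
hif-1, chrV:20778287-20778407, plus strand: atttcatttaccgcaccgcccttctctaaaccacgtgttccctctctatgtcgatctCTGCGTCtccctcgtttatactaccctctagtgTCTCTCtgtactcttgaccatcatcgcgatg
nhr-88, chrII:2974059-2974179, plus strand: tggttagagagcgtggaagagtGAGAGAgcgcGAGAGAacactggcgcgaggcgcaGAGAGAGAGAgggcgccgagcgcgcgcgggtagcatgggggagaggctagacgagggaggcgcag
wht-7, chrIII:6141687-6141747, plus strand: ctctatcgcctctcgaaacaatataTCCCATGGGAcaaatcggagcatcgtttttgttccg
H14E04.3, chrIII:2393481-2393541, plus strand: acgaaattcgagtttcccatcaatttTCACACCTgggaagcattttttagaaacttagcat

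The intergenic peaks were weaker than the other autosomal peaks as a group, but they included the strongest peak of the list. Signals ran from 2.02 to 721, with a median of 88.8 and quartiles of 72.9 and 121, against a median of 104 for the 905 other autosomal peaks. The promoter peaks had a median of 114 and the peaks inside genes one of 85.4. Of the intergenic peaks, 93 of 259 (35.9%, exact binomial 95% interval 30.1 to 42.1%) exceeded 98.7, the median of all 1431 peaks, against 491 of 905 (54.3%, interval 50.9 to 57.5%) of the other autosomal peaks. The odds ratio was 0.47 with a Woolf interval of 0.355 to 0.629 (two-sided Fisher's exact test, p = 2.33e-07). Such tests treat peaks as independent, although 39 intergenic summits lay within 320 bp of another summit of the list.

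Promoter peaks were the stronger ones. The promoter peaks exceeded the median in 410 of 680 cases (60.3%), against which the intergenic share gave an odds ratio of 0.369 (adjusted p = 3.37e-10 by Fisher's exact test, Benjamini-Hochberg adjusted over 16 such pairwise comparisons). Inside genes 81 of 225 peaks exceeded it, and the odds ratio of 0.996 had an interval of 0.686 to 1.45. With each replicate's own signal, the intergenic share above the autosomal median was 37.8%, against 53.3% at other autosomal peaks, in replicate 1 (Fisher's exact test, p = 2.30e-05) and 39.3%, against 53.0%, in replicate 2 (p = 0.000211). In the replicates' own thresholded lists, each with its own median, the odds ratio was 0.588 without replicate 1 (p = 0.00737) and 0.813 without replicate 2 (p = 0.321, both Fisher's exact test), so the call was lost in replicate 1's list of 124 intergenic peaks.

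**Figure D1:**
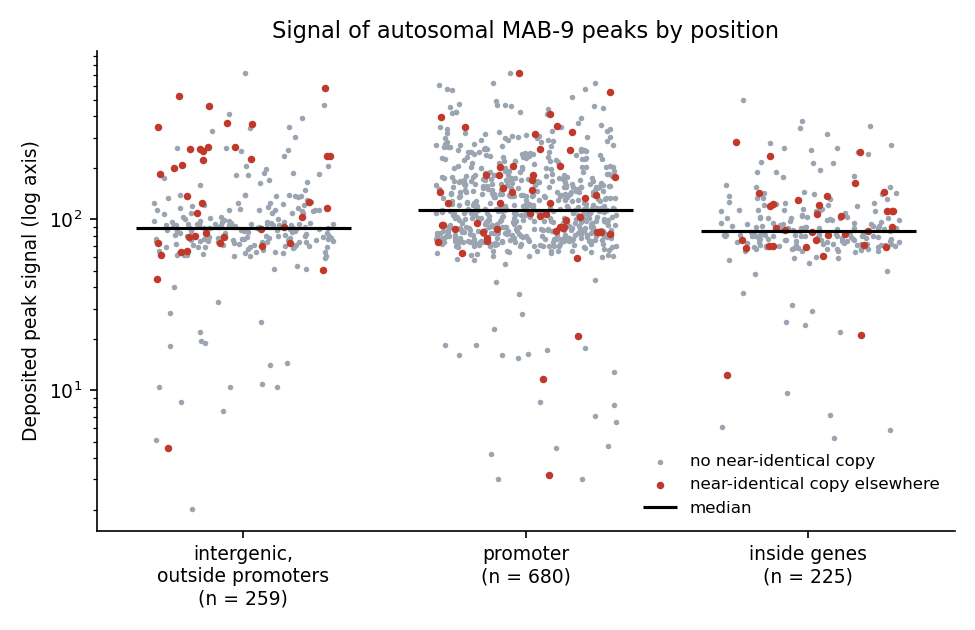
Deposited signal of each autosomal peak on a log axis, for 259 intergenic peaks outside promoters, 680 promoter peaks and 225 peaks inside genes; red points have a near-identical copy elsewhere in the genome and the black bar is the median. The intergenic median of 88.8 lies below the promoter median of 114, and red points are frequent among the strong intergenic peaks.

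Fewer of the intergenic peaks were found in each replicate alone. Both replicates' thresholded lists held 69 of 259 (26.6%, interval 21.4 to 32.5%), against 393 of 905 other autosomal peaks (43.4%, interval 40.2 to 46.7%). The odds ratio was 0.473 with an interval of 0.349 to 0.642 (two-sided Fisher's exact test, p = 8.75e-07). Against promoter peaks alone, of which 49.9% were in both lists, the odds ratio was 0.365 (adjusted p = 8.54e-10 by Fisher's exact test), and against peaks inside genes, with 24.0%, it was 1.15 with an interval of 0.762 to 1.74. Neither replicate's thresholded list held 114 of the 259 intergenic peaks, against 281 of the 905 other autosomal peaks. Signal and presence in both lists move together here, and the part of signal in this difference was not tested.

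Where a peak was matched in both replicates' ranked lists, the values lay close together. This held for 234 of the 259 intergenic peaks, whose log2 ratio of replicate 1 over replicate 2 averaged 0.21 with an SD of 0.42. The signals were within 2-fold of each other at 227 of the 234 (97.0%), and the same share was 97.0% at the other autosomal peaks. Across the 234 peaks the Spearman rho was 0.580 and the Pearson r on the log2 scale 0.838, against 0.718 and 0.826 at the other autosomal peaks, as a description across peaks that were kept for their reproducible ranks. The largest ratio was at one of 3 intergenic peaks of F54F12.1, with 141 in replicate 1 and 49.5 in replicate 2.

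**Figure D2:**
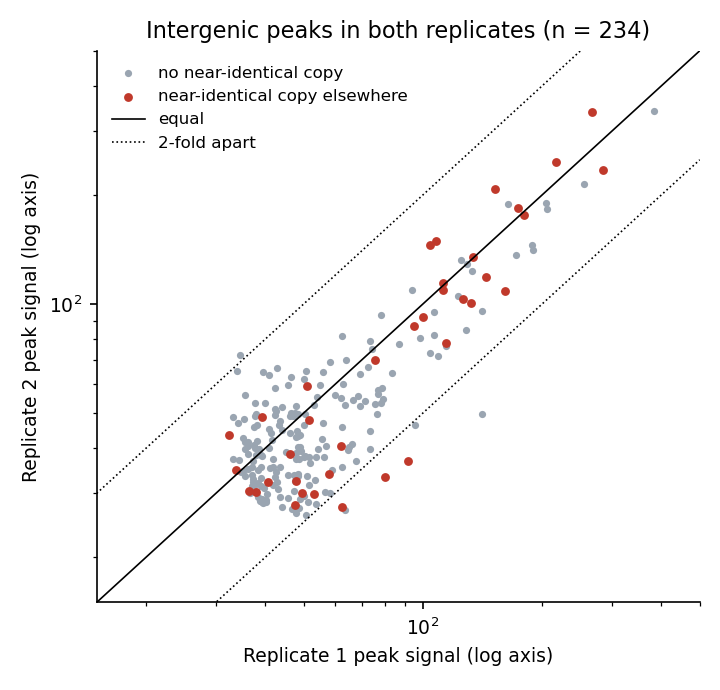
Replicate 1 against replicate 2 signal of the 234 intergenic peaks matched in both ranked lists, on log axes; the solid line marks equal values and the dotted lines values 2-fold apart. All but 7 of the points lie between the dotted lines, and red points, at 10 of the 20 strongest peaks, have a near-identical copy elsewhere in the genome.

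The 15 strongest intergenic peaks were all in both replicates' thresholded lists. The F58D12.3 peak (chromosome V, 14055084 to 14055341) had signals of 384 and 342 in replicates 1 and 2 and ranked first of 1431. The peak 468 bp downstream of the closest transcript start of K08F11.1 followed, with a signal of 588 and replicate values of 267 and 339. The ZK1248.17 peak at sls-2.1 had 523 (285 and 234), and the peak upstream of nhr-88, a nuclear hormone receptor gene, had 466 (254 and 214). The second K08F11.1 peak had 461 (216 and 246), and the peak 1277 bp from the start of ins-13, an insulin-like peptide gene, had 411 (206 and 183). This last is the sls-2.2 peak.

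Genes of known function were among those nearest to the remaining strong peaks. The peak near nlp-40, which encodes a neuropeptide of the defecation rhythm, had a signal of 391 (205 and 190 in replicates 1 and 2). The peak 4770 bp upstream of cmd-1, the calmodulin gene, had 344 (164 and 189) and lay inside the long noncoding RNA gene linc-128. The peak 1966 bp upstream of hif-1, the hypoxia-inducible factor gene, had 304 (172 and 137). The F40E3.3, F53E10.5, K07D4.2, Y105C5A.1 and T04C4.3 peaks had signals from 329.9 to 364, and the last K08F11.1 peak had 265. A peak 1739 bp upstream of egl-9, the prolyl hydroxylase that acts on HIF-1, had 164 (87.2 and 77.4); this gene was singled out after its value was seen.

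Near-identical copies were more frequent at intergenic than at promoter peaks and about as frequent as at peaks inside genes. Among intergenic peaks they were most frequent at the strong ones. A copy was counted where at least 100 bp of the window of 100 bp on either side of the summit aligned elsewhere with at least 90% identity, a criterion chosen after seeing the data. This held for 40 of 259 intergenic peaks (15.4%, interval 11.3 to 20.4%) and for 88 of 905 other autosomal peaks (9.72%, interval 7.87 to 11.8%), an odds ratio of 1.70 with an interval of 1.13 to 2.54 (two-sided Fisher's exact test, p = 0.0129). Promoter peaks had a copy in 7.94% of cases (odds ratio 2.12, adjusted p = 0.00386 by Fisher's exact test), and peaks inside genes in 15.1% (odds ratio 1.03, interval 0.624 to 1.69). Because the criterion was chosen after seeing the data, neither p-value can serve as support. Copies were not rare in the surrounding sequence: 16.2% of windows 1000 bp to either side of the intergenic summits had one, as did 22.8% of 3882 windows spaced over all autosomal sequence that fits the rule.

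Copies were unevenly spread over the range of signals. A copy was found at 10 of the 20 strongest peaks and at 24 of the 93 above the median (25.8%), against 16 of the 166 at or below it (9.64%); no test is given, since this was noticed in the data. The 29 peaks with 1 to 9 copies had a median signal of 207, the 11 with at least 10 copies one of 82.9, and the peaks without a copy one of 87.8. Of the 20 intergenic peaks narrower than the full 320 bp, 13 had a copy, against 27 of the 239 of full width (11.3%). Reads from identical sequence cannot be assigned to 1 copy by their bases, and the treatment of such reads is not given in these sources.

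Linking windows that align to each other gave 13 sequence families that hold 24 intergenic peaks. The first family, printed above from K07D4.2, held 5 intergenic peaks with signals from 224 to 348 and 1 peak inside mod-5, the serotonin transporter gene, with 248. Of the 8 other places aligned to the K07D4.2 window, at 91.6 to 98.8% identity, 5 held a peak of the conservative list. The xpd-1 copy, at 98.2% identity, held a peak of the ranked list alone with a signal of 36.3, and a copy on chromosome V at the same identity held none. A shorter copy of 107 bp on chromosome II held none either.

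The second family behaved in the same way. It held 4 intergenic peaks, near K08F11.1, F40E3.3 and K08D10.11, with signals from 258 to 461, and the peak inside col-72. The djr-1.2 peak, with a signal of 183, also overlapped a copy of 97.5% identity. Of 7 copies aligned to the strongest peak's window, 5 lay under a conservative peak, 1 inside Y20F4.8 under a ranked peak with a signal of 28.8, and 1 under none, although its 117 bases were identical.

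**Figure D3:**
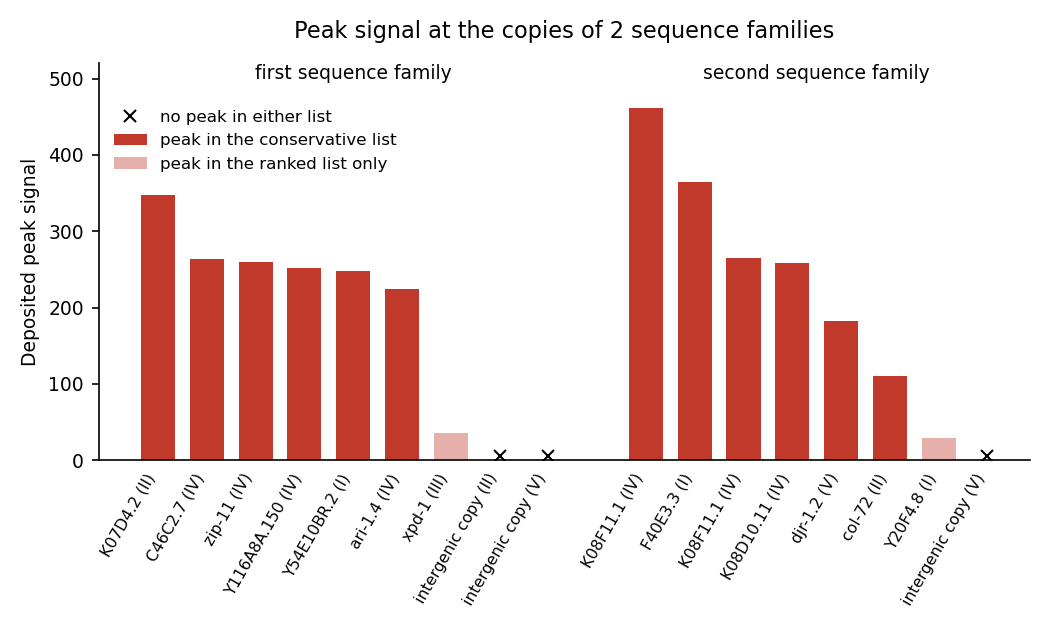
Deposited signal at each copy of the first and second sequence families, named by nearest gene or by the gene that contains it, with the chromosome in brackets; dark bars are conservative peaks, pale bars peaks of the ranked list alone, and crosses places without a peak. Conservative peaks reach from 111 to 461, the pale bars stand at 36.3 and 28.8, and 3 copies have no peak.

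The third family, of 4 peaks, joined the strongest K08F11.1 peak, with a signal of 588, to a second intergenic peak near Y54G2A.36, with 90.3, a promoter peak of rpa-2, with 412, and a peak near fbxa-139, with 142. K08F11.1 therefore had a peak of the second family on either side of it and one of this family next to its end. The other families held 1 or 2 intergenic peaks each, several of them with promoter peaks, and the peaks in families numbered 58 in all.

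**Figure D4:**
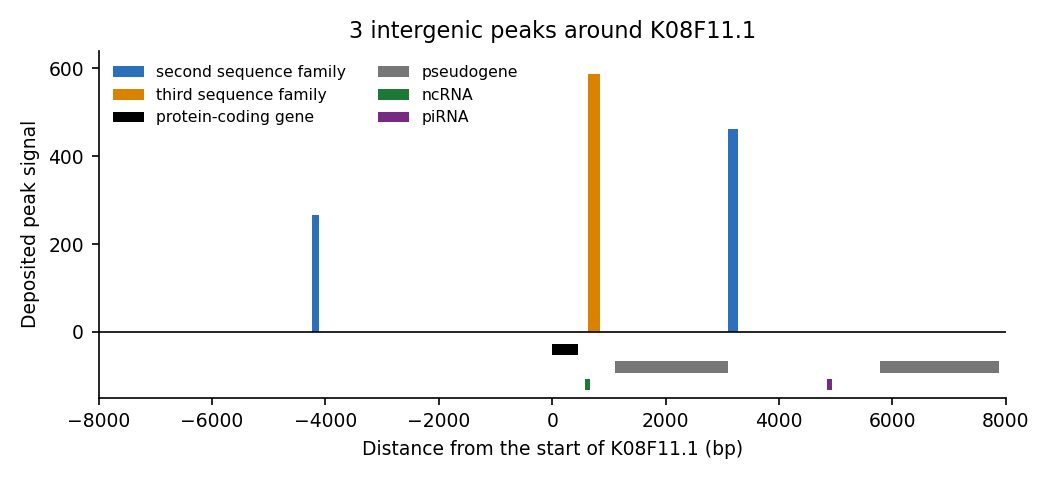
Peaks around K08F11.1 on chromosome IV by distance from the start of that gene, with bar height showing the deposited signal, bar width widened where needed to be visible, and colour showing the sequence family; genes are drawn below the axis. The peaks of 588 and 461 lie downstream of the gene and the one of 265 upstream.

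RNA genes and pseudogenes within 200 bp of the summits were counted by class. In the comparison with other autosomal peaks by Fisher's exact test, 1 of the 9 classes with any peak passed the test, which is 11.1% of those tested, and 4 had an unadjusted p under 0.05. The rule leaves out protein-coding genes but not RNA genes, so each class is also set beside its share of the autosomal bases that fit the rule. Only small nucleolar RNA genes, transfer RNA genes and pseudogenes were also compared with promoter peaks and peaks inside genes separately. The p-values of those separate comparisons cannot serve as support, since the classes were picked.

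Small nucleolar RNA genes, which guide chemical modification of ribosomal RNA, were near 15 intergenic summits (5.79%, interval 3.28 to 9.37%), against 2.98% of other autosomal peaks (odds ratio 2.00, adjusted p = 0.107 by Fisher's exact test). Of promoter peaks 2.21% were near one (odds ratio 2.73, adjusted p = 0.0194 by Fisher's exact test). Of peaks inside genes 5.33% were, a share close to the intergenic one (odds ratio 1.09, interval 0.50 to 2.38). Only 0.171% of the bases that fit the rule lay within 200 bp of such a gene, so the intergenic share was 33.8 times the base share. The summit was upstream of the nearest snoRNA gene in 10 of the 15 and inside it in 3, at a median of 58 bp from its start. The strongest were at F25H2.15 with a signal of 136, ZK20.9 with 119 and Y74C9A.6 with 112, and their summits lay 37, 2 and 30 bp upstream of the genes. A single snoRNA gene, F37A8.7, accounted for the summits with signals of 90.5 and 10.4.

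Spliced leader genes were near 4 intergenic summits (1.54%), against 0.331% of other autosomal peaks and 0.0512% of bases (adjusted p = 0.107 by Fisher's exact test). The sls-2.1 and sls-2.2 peaks formed a sequence family of their own. A second, weak summit with a signal of 61.6 lay past the end of sls-2.2, and the sls-2.9 peak, with 93.4, lay 82 bp upstream of that gene and 50 bp upstream of a tRNA gene. Transfer RNA genes were near 4 summits (1.54% of intergenic peaks, 1.99% of other autosomal peaks and 0.191% of bases), all of them upstream, at signals from 72.8 to 114. Against peaks inside genes, of which 6.22% were near a tRNA gene, the intergenic share was lower (odds ratio 0.236, adjusted p = 0.0153 by Fisher's exact test).

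MicroRNA genes were near 3 intergenic summits and 1 other autosomal summit (1.16%, interval 0.240 to 3.35%, against 0.110%, adjusted p = 0.107 by Fisher's exact test). Such genes were on 0.169% of bases, so the intergenic share was 6.84 times the base share. Within 100 bp the intergenic share was 0.386%, and among peaks above the median signal it was 0%. The genes near the 3 intergenic summits were mir-53, mir-8209 and mir-52, with signals of 79.4, 76.8 and 74.4. The summits lay 196 bp upstream of mir-53 and 123 bp upstream of mir-52, both members of the mir-51 family. The piRNA genes lay near 4 summits (1.54%), below their 7.85% of bases. Small nuclear RNA genes, on 0.0540% of bases, were near 0 of 259 intergenic summits, which allows a share of up to 1.41% (exact interval), and near 7 of 905 other autosomal ones (adjusted p = 0.539 by Fisher's exact test). Long noncoding RNA genes held 3 summits (1.16%, on 1.06% of bases), at linc-128, linc-129 and linc-91, with signals of 344, 89.5 and 84.9.

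Pseudogenes were the class that passed the test, with 13 intergenic summits (5.02%) against 5 other autosomal ones (0.552%), an odds ratio of 9.51 (adjusted p = 6.59e-05 by Fisher's exact test). The odds ratio was 5.33 within 500 bp and 26.9 without peaks that have a near-identical copy, and it stayed past the threshold in both. Both shares were below the 14.5% of rule-fitting bases that lie within 200 bp of a pseudogene, and the intergenic share was 0.347 times that base share. A promoter or genic peak cannot lie far from a protein-coding gene by construction. These odds ratios therefore cannot tell a trait of the peaks from the effect of the rule. Of the 13 summits 9 lay inside the pseudogene, and the 3 strongest, near K08F11.1, F07H5.13 and djr-1.2, had signals of 461, 253 and 183. Other noncoding RNA genes were near 40 summits (15.4%, against 13.7% of other autosomal peaks and 4.06% of bases, adjusted p = 0.539 by Fisher's exact test).

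The base content of the intergenic peaks rose at the summit. The same windows had a median GC content of 45.8%, against 43.3% at other autosomal peaks, 34.8% in the windows 1000 bp to either side and 33.8% over all tiles of rule-fitting sequence. Among the other autosomal peaks the median was 42.3% at promoter peaks and 46.8% at peaks inside genes. Mean GC content of the intergenic peaks reached 46.4% in the 50 bases before the summit and ran from 33.9 to 35.9% beyond 500 bp. GAGAGA was present in 116 of the 259 windows (44.8%, interval 38.6 to 51.1%), against 33.9% of other autosomal windows, 13.1% of the flanking windows and 10.5% of tiles. CTGCGTC was present in 51 (19.7%), against 13.3%, 2.32% and 1.69%, which is 11.6 times the share of tiles.

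These patterns were read off the 6-mers and so are given without a test. The longer form CTGCGTCTC was found in 41 windows (15.8%), against 11.0% of other autosomal windows and 1.04% of tiles. Either CTGCGTC or GAGAGA was present in 125 windows (48.3%), and both in 42 (16.2%). Peaks with one of these patterns and peaks with a copy overlapped little: 8 intergenic peaks had both, 32 a copy alone and 117 a pattern alone. The 102 peaks with neither had a median signal of 82.6, but they included the strongest peak of all. The 84 bases printed for that peak, although identical elsewhere, ended 106 bp before its summit and so lay outside the window searched for copies. They were also shorter than the 100 bp that a copy required.

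**Figure D5:**
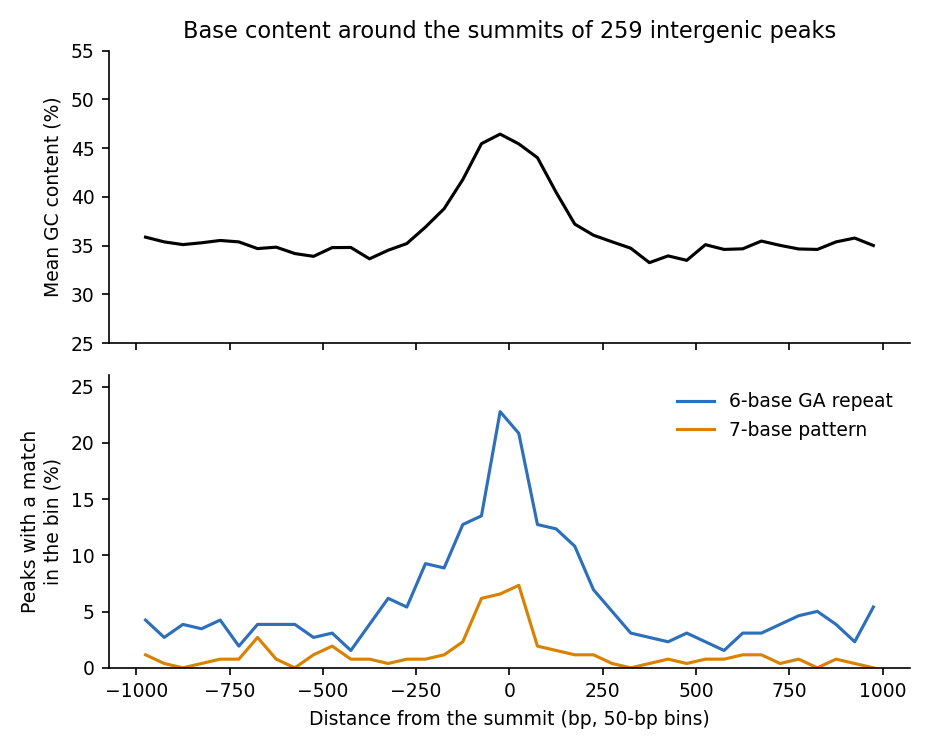
Mean GC content (top) and share of the 259 intergenic peaks with a match starting in each 50-bp bin (bottom) by distance from the summit, counting both strands; the GA repeat is GAGAGA and the 7-base pattern CTGCGTC. GC content peaks at 46.4%, the GA repeat at 22.8% and the 7-base pattern at 7.34%, all within 50 bp of the summit.

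None of the 17 chosen patterns differed between intergenic and other autosomal peaks after adjustment (0%), and 4 had an unadjusted p under 0.05 by Fisher's exact test. These were GAGAGAGA, TGATNNAT and CACGTG, more frequent at intergenic peaks, and TGACTCA, less frequent there. TGACTCA was in 0.386% of intergenic windows, 2.43% of other autosomal windows and 1.90% of tiles (odds ratio 0.156, adjusted p = 0.171 by Fisher's exact test). GAGAGAGA, the GA repeat of 8 bases, came closest, in 40 intergenic windows (15.4%) against 9.17% of other autosomal windows (odds ratio 1.81, interval 1.21 to 2.71, adjusted p = 0.0846 by Fisher's exact test). Without replicate 1 it passed (odds ratio 2.53, adjusted p = 0.00813 by Fisher's exact test), as it did in 5 of the other settings, but not without replicate 2 (adjusted p = 0.729) or among peaks above the median signal (adjusted p = 0.306). Against promoter peaks alone GAGAGAGA passed (odds ratio 2.04, adjusted p = 0.00529 by Fisher's exact test), and against peaks inside genes it did not (odds ratio 1.34, adjusted p = 0.427). TGATNNAT, the site of PBX and Hox pairs, was in 13.5% against 7.96%, but in 14.6% of tiles (adjusted p = 0.0846 by Fisher's exact test). The E-box CACGTG was in 26 intergenic windows, against 6.08% of other autosomal windows and 2.80% of tiles (adjusted p = 0.171 by Fisher's exact test), and the COE pattern in 1.93% against 0.663%, and 0.0958% of tiles (adjusted p = 0.253 by Fisher's exact test). The COE pattern passed against promoter peaks alone, of which 1 of 680 held it (odds ratio 13.4, interval 1.55 to 114.97, adjusted p = 0.0153 by Fisher's exact test), and not against peaks inside genes (odds ratio 0.866, adjusted p = 1). Of the 17 patterns, only GAGAGAGA and COE were compared with promoter peaks and peaks inside genes separately. The calls against promoter peaks therefore cannot serve as support.

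The T-box half-site was rare. AGGTGTGA was present in 1 of 259 intergenic windows (0.386%), 0.221% of other autosomal windows, 0.965% of flanking windows and 0.479% of tiles (adjusted p = 0.676 by Fisher's exact test). The H14E04.3 peak that held it had a signal of 63.2 (41.7 and 31.6 in replicates 1 and 2) and lay 7003 bp upstream of that gene. Its first 6 bases, AGGTGT, were in 5.79% of intergenic windows, against 4.75% of other autosomal windows and 5.89% of tiles. Its last 6 bases were in 10.8%, against 9.61% and 7.17%. Matches of letters in a window are descriptions and show nothing about where the protein bound.

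Among all 2080 6-mers, 61 (2.93%) differed between intergenic and other autosomal peaks after adjustment, 26 being more frequent and 35 less frequent at intergenic peaks. AAGAGA was in 43.2% of intergenic windows and 14.3% of tiles, and was more frequent than at other autosomal peaks (odds ratio 2.17, adjusted p = 0.000105) and AGAGAT in 27.8% against 14.4% (odds ratio 2.30, adjusted p = 0.000673, both by Fisher's exact test). The A-rich AAAATC was in 18.1%, against 36.6% (odds ratio 0.384, adjusted p = 1.73e-05 by Fisher's exact test), and in 40.2% of tiles. Both groups differed in GC content by the medians above, and its part in these calls was not tested. The count was 36 without replicate 1 and 11 without replicate 2, of which 21 and 9 were among the 61. Without replicate 2 neither AAGAGA nor AAAATC passed (adjusted p = 0.205 and 0.0737 by Fisher's exact test).

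The intergenic peaks were spread over all autosomes in proportions close to the sequence that fits the rule, with exceptions on 2 chromosomes. Such sequence made up 23.6% of the autosomes. Chromosome III held 20.5% of the peaks (interval 15.7 to 25.9%) on 14.4% of the rule-fitting bases, and chromosome V 18.5% (interval 14.0 to 23.8%) on 26.7%. Chromosomes I, II and IV held 48, 44 and 66 of the peaks, with intervals that contained their shares of bases. The middle stretches of the chromosomes, cut at equal lengths into 3, held 37.1% (interval 31.2 to 43.3%) on 30.4% of bases.

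Peaks were then placed relative to the genes on either side. The rule itself favours places upstream of a gene, since a summit downstream of a start must lie past the gene body. The summit was upstream of the nearest start in 174 of the 259 (67.2%), at a median of 2353.5 bp, and downstream of it in 85, at a median of 2921 bp. Distances reached 14913 bp, and 43 exceeded 5000 bp. Gaps between tandem genes held 136 peaks (52.5%, on 53.5% of bases), gaps between divergent genes 88 (interval 28.2 to 40.1%, on 28.7%) and gaps between convergent genes 34 (13.1%, interval 9.27 to 17.9%, on 17.7%). The strongest in divergent gaps were the Y105C5A.1, T04C4.3 and hif-1 peaks, and in convergent gaps the ZK1248.17, nlp-40 and zip-11 peaks, the last with a signal of 259. Within 500 bp past the end of a protein-coding gene lay 52 summits (20.1%, interval 15.4 to 25.5%), on 15.2% of bases.

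Values on both sides of the limits of the rule are as follows. The intergenic peaks closest to the upstream limit, 1012, 1027 and 1052 bp from R05G6.10, mstr-1 and mtm-3, had signals of 77.3, 125 and 173. The promoter peaks just on the other side, each 998 bp from sup-1, algn-10 and lin-13, had 98.9, 112 and 18.3. Downstream, the nearest intergenic summits lay 468, 705 and 727 bp from the closest transcript starts of K08F11.1, C07H6.9 and ZK1248.17, with signals of 588, 114 and 523. The promoter peaks at the downstream limit, 250, 249 and 249 bp into vhp-1, Y48A6B.8 and rps-26, had signals of 12.8, 20.7 and 54.8.

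The 226 nearest genes were read against gene lists. The T-box, hindgut and male tail, motor neuron and splicing lists, like the histone, collagen and C-type lectin families, were nearest to 0 intergenic peaks. These lists were small, with at most 1.19% of genes and 1 to 6 of the 1164 autosomal peaks each, so few intergenic peaks could fall near them. Homeobox genes were nearest to 4 intergenic peaks (1.54%), against 0.515% of all autosomal peaks and 0.315% of genes. The Hox gene ceh-13, of the labial class, had 2 overlapping peaks upstream, at 2602 and 2384 bp, with signals of 79.5 and 8.53. The homeobox genes ceh-48 and ceh-22 (a regulator of pharyngeal muscle) had 1 peak each with signals of 119 and 74.8. The heterochronic gene lin-41, a target of the let-7 microRNA, had a peak 1504 bp upstream with a signal of 94.5. The kinase gene akt-1, which acts in insulin signalling, had one 2278 bp upstream with 97.8. Each of these last 2 lists had 1 intergenic peak (0.386%) and 0.258% of all autosomal peaks.

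Larger families were counted beside all autosomal peaks and all genes. Nuclear hormone receptors were nearest to 7 intergenic peaks (2.70%), 1.03% of all autosomal peaks and 1.35% of genes, with nhr-88, nhr-21 and nhr-20 at signals of 466, 102 and 76.2. Chemoreceptors were nearest to 10 (3.86%), against 1.55% of autosomal peaks and 6.54% of genes, with srv-14, srh-105 and str-56 at 109, 108 and 88.8. Ribosomal protein genes were nearest to 1 intergenic peak (0.386%) and to 20 autosomal peaks in all (1.72%), and made up 0.391% of genes. The intergenic one lay 5613 bp upstream of rps-25 with a signal of 135. The F-box gene fbxa-61 had a peak with a signal of 73.1 and the bZIP gene zip-11 the one given above.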

How the data were processed

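The members and lists were chosen with earlier results of these data known, and the copies, families and the CTGCGTC and GAGAGA shares were added after seeing the data. Each deposited peak list gives, per the file headers and their column layout, a signal per peak and −log10 values of the authors' caller, made before deposit; reads were not analysed here, and the aligner, the caller and the handling of repeats are not stated. The build is ce11 per the submitters' processing notes. The conservative list was taken as the main list, and the replicates' own lists were used for each replicate's values, matched where at least 50% of the shorter peak overlapped. Genes were from Ensembl release 115 and sequences from RefSeq. RNA genes were counted within 200 bp of a summit, and patterns on both strands within 100 bp of it. Flanking windows lay 1000 bp to either side. Copies were found with BLAST+ 2.17.0 at an e-value limit of 1e-10, at least 90% identity and at least 100 bp. Shares have exact 95% binomial intervals and odds ratios Woolf intervals. Two-sided Fisher's exact tests used SciPy 1.17.1, with Benjamini-Hochberg adjustment over each family and a threshold of 0.05. Separate comparisons with promoter peaks and peaks inside genes covered picked traits only, not every pattern or RNA class. These intervals cover counting of peaks only, and their depth is unknown. Named were the 15 strongest peaks, the strongest 3 of each RNA class, orientation and gene list, every peak with AGGTGTGA, and the peaks nearest the limits; others are said to be chosen after their values were seen, or stand with a family or pattern. Python 3.11.15, NumPy 2.4.6, pandas 2.3.3 and matplotlib 3.10.9 were used, and the scripts were tested on simulated data. The biological replicates form 1 group, and no other condition was compared.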

Additional observations from a re-analysis of the deposited data

Results flagged for a closer look

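The pooled ranked list holds peaks that pass the reproducibility threshold of 0.01 and yet are outside the conservative list, and 56 of them fit the same rule on position. The strongest, nearest to lgc-26 on chromosome V, had a deposited signal of 371, and those near Y49G5A.1 and C26H9A.3 followed with 357 and 270.3. No control sample was analysed here, so these values have no background beside them.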

How the results depend on the processing

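No paired analysis was possible because there is 1 group. The intergenic peaks numbered 124 to 135 when a replicate was left out, that is, in the other replicate's own list, and 93 above the median signal. Their share of the list was 15.05 to 15.54% without a replicate, 13.1% with wider promoter limits, 23.6% with a narrower upstream limit of 500 bp, and 13.0% above the median. The odds ratio for a signal above the median was 0.588 to 0.813 without a replicate, and the call was lost in replicate 1's list. The cause was not tested. The RNA classes called were 1 to 2 without a replicate, the second being spliced leader genes (odds ratio 7.49 in replicate 2's list). The patterns called were 2 with narrower windows, 2 with wider ones, 1 without peaks near an RNA gene, 0 to 1 without a replicate, 2 without peaks that have a copy and 1 without overlapping peaks. The 6-mers called were 11 to 36 without a replicate. Directions turned for tRNA genes (odds ratio 1.17 within 500 bp, 1.33 above the median, 1.14 in the other pooled list, and 1.961 to 1.969 without a replicate), snoRNA genes (0.929 above the median) and lincRNA genes (0.804 within 500 bp). The COE pattern turned without replicate 2 (odds ratio 0.902) and kept its direction without replicate 1 (1.45). The odds ratio for a near-identical copy kept its direction and call in all 6 alternatives tried, which were chosen after seeing the data. With only peak lists, depth limits every value to an unknown degree.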
